A study of Mus musculus with 14 samples.

Results

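Libraries from 5000 sorted liver leukocytes were compared with libraries from 20000, over all expressed genes, to ask which transcripts change when the number of cells put into RNA isolation is lowered 4-fold. The libraries were chosen by their titles, 3 for each cell number, so that 6 of the 14 libraries in the series entered the comparison, and all had been made from CD45+ cells sorted by flow cytometry out of needle biopsies. All mice were untreated and wild type, with age, sex and strain not stated in the sources used here. Cells of 2500 and 10000 per sample, with 3 libraries each and the same origin, served to estimate the spread and as a second 4-fold step. Nothing in the labels ties the libraries of one input to different mice or biopsies, so the p-values cover only the variation among these libraries, and this may be technical.

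CD45, encoded by Ptprc, is a tyrosine phosphatase on the surface of nucleated blood cells, and a gate on it takes up the liver's Kupffer cells, monocytes, neutrophils, dendritic cells and lymphocytes together. RNA from so few cells is copied into cDNA from its poly(A) tail and amplified before a library is made. Transcripts of rare cells, and RNA carried over from cells outside the gate, are the parts of such a profile that a change in cell number is commonly checked for.

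Total counts were 8513416, 14496314 and 10385463 in the 5000-cell libraries and 6723357, 9272922 and 7732012 in the 20000-cell libraries. Ptprc stood at 2586, 2533 and 2326 CPM (counts scaled to a common library total, with TMM factors) with 5000 cells and at 2482, 2485 and 2483 CPM with 20000 cells. Its groups overlapped, with a log2 difference of -0.00 (SE 0.04). Spearman correlations of counts across genes, which are not independent replicates, were 0.988 to 0.990 between the groups, 0.988 to 0.989 within the 5000-cell group and 0.990 to 0.993 within the 20000-cell group. No pair of libraries agreed within sampling noise (chi-square per degree of freedom at least 2.22).

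Of 14795 genes tested, 13 were lower with 5000 cells than with 20000 cells (0.0879%) and 0 were higher, at an adjusted p under 0.05 (edgeR's quasi-likelihood test, p-values adjusted after Benjamini and Hochberg). At an unadjusted p under 0.05, 704 genes were lower (4.76%) and 499 higher (3.37%), and DESeq2 called 79 lower and 8 higher. The count of lower genes was 7 without 5000-cell replicate 1, 6 without 5000-cell replicate 3, 7 without 20000-cell replicate 2, 6 without 20000-cell replicate 3 and 7 without 10000-cell replicate 2, and it was 29 without 20000-cell replicate 1 and 24 without 2500-cell replicate 3. The median log2 difference over all tested genes was 0.01. For 60.9% of them, and for 79.8% of the 11276 genes with at least 5 CPM in either group, the 95% confidence interval of the difference lay within 1.5-fold in both directions.

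**Figure D1:**
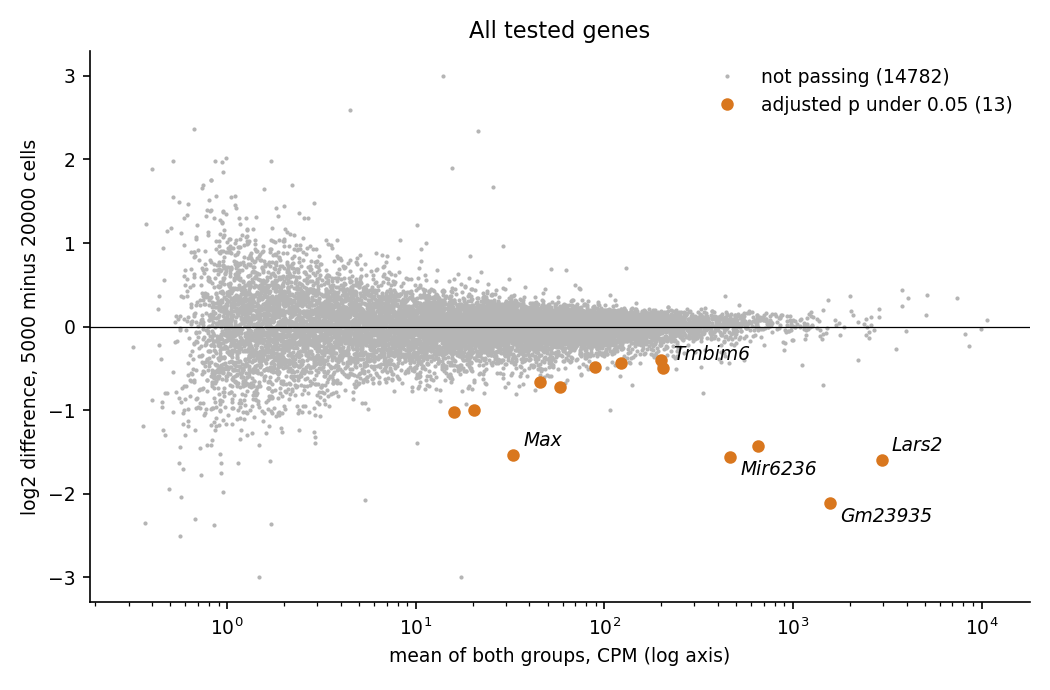
Log2 difference between 5000 and 20000 cells (y axis) against the mean CPM of both groups (x axis, log scale) for 14795 tested genes, with the 13 that passed in orange. The 13 lie below 0, and 3 genes beyond a log2 difference of 3 in size are drawn at the edge of the plot.

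Among the 13 were 4 features that stood apart in abundance: Lars2, the leucyl-tRNA synthetase of mitochondria, the antisense gene model Gm15564, the microRNA gene model Mir6236 and a second microRNA model, Gm23935. Together they took 0.264 ± 0.0271% (SD, n = 3) of counts with 5000 cells and 0.856 ± 0.113% (n = 3) with 20000 cells. Gm15564 and Gm23935 are known only by a number, fall outside the rule for naming genes, and were named after their values were seen. The mature miRNA of Mir6236 and the whole model of Gm23935 are shown 5′ to 3′ on the transcribed strand. In mature miR-6236 the capitals mark the seed (bases 2 to 8), and in Gm23935 the longest run it shares with the model Gm24187.
mmu-miR-6236: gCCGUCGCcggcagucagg
Gm23935: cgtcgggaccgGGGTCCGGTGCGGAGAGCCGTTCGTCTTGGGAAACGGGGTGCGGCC
The mature sequence is RefSeq's (GRCm38.p6), and that of Gm23935 is of its GENCODE M21 model on GRCm38. Of the 1738 mature mouse miRNAs in the RefSeq table, no other (0) shares the seed of miR-6236. GC content was 78.9% over the 19 bases of the mature miRNA and 73.7% over the 57 bases of Gm23935.

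Lars2 (ENSMUSG00000035202, chr9:123366927-123462666, plus strand) had the smallest p of all tested genes. It stood at 1624, 1375 and 1407 CPM in the 5000-cell libraries and at 4969, 3958 and 4348 CPM in the 20000-cell libraries. The groups were far apart, with no overlap. This amounted to a log2 difference of -1.59 by edgeR (adjusted p = 4.6e-09, SE 0.08). Of the other 16 mitochondrial aminoacyl-tRNA synthetases, none passed, and 12 of the list's 17 estimates were above 0. Iars2, the isoleucyl enzyme, had a log2 difference of 0.07 (SE 0.09). Of 19 tested synthetases of the cytosol 14 estimates were above 0, and 0 passed.

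Gm15564 (ENSMUSG00000086324, chr16:35966752-35983230, minus strand) fell from 1073, 847 and 939 CPM with 20000 cells to 394, 327 and 345 CPM with 5000 cells. Its groups did not overlap, and its log2 difference was -1.42 (SE 0.08; adjusted p = 2.9e-08, edgeR). The span of Gm15564, introns included, overlaps exons of Kpna1, an importin gene, and of Parp9, which lie on the other strand. Whether the exons of Gm15564 itself overlap them was not examined. Kpna1 had a log2 difference of 0.03 (SE 0.08) and Parp9 one of 0.09 (SE 0.07), and neither passed. Whether the counting used strand is not stated in the sources used here. Where exons of a gene and of its antisense partner overlap, their reads may therefore not be separated.

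A transcript of Gm15564 of 402 bases shares an identical run of 52 bases, on the same strand, with Lars2. In the longest Lars2 transcript (3894 bases) the run covers bases 3278 to 3329, past the end of the coding sequence at base 2905. No other gene of the annotation (0) holds the whole run. The ratio of Lars2 to Gm15564 CPM was 4.07 to 4.20 over the 5000-cell libraries, 4.63 to 4.67 over the 20000-cell libraries, 4.07 to 4.25 with 2500 cells and 4.25 to 4.35 with 10000 cells. The ratios of 5000 and 20000 cells did not overlap.

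Mir6236 (ENSMUSG00000098973, chromosome 9), which overlaps no other gene of the annotation, was counted at 252, 242 and 213 CPM with 5000 cells and at 650, 701 and 727 CPM with 20000 cells. All 3 libraries of 20000 cells lay well above all 3 of 5000 cells. The log2 difference was -1.56 (SE 0.10; adjusted p = 1.5e-07, edgeR). The gene model is 123 bases long, of which the mature miRNA above takes 19, and the counts do not tell whether reads came from a miRNA precursor or from a longer RNA that covers it. The ratio of Lars2 to Mir6236 CPM overlapped between groups, at 5.69 to 6.59 with 5000 cells and 5.65 to 7.65 with 20000 cells. It was 5.15 to 6.19 with 2500 cells and 6.92 to 9.18 with 10000 cells, the latter above every 5000-cell library.

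Gm23935 (chr16:11144125-11144181, plus strand) had the largest log2 difference of the 13, -2.11 (SE 0.15; adjusted p = 2.4e-04, edgeR). Its values were 690, 535 and 538 CPM with 5000 cells and 3112, 2049 and 2444 CPM with 20000 cells. Lars2 stood at 2.35 to 2.61 times the CPM of Gm23935 with 5000 cells and at 1.60 to 1.93 times with 20000 cells, without overlap. The model lies in an intron of Zc3h7a, a zinc finger gene on the other strand, which stood at 235 CPM with 5000 cells and 236 CPM with 20000 cells (log2 difference -0.01, SE 0.08). Its call was lost when only the 6 libraries of both groups entered the fit (adjusted p = 0.0598, edgeR).

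The 57 bases of Gm23935 printed above are identical to those of Gm24245 (chr4:139338304-139338360, plus strand) and Gm24270 (chr9:56223715-56223771, minus strand), and Gm24187 on chromosome 13 shares its last 46 bases. The sources used here do not state how reads that match several copies were counted, so the split between the copies is uncertain. Gm23935 received 5856, 7672 and 5612 counts with 5000 cells and 20806, 18886 and 18795 with 20000 cells. Gm24245 received 3, 12 and 4 counts and 25, 23 and 19 counts, and did not pass (log2 difference -2.36, SE 0.57; adjusted p = 0.168, edgeR). Gm24270, with at most 8 counts in a library, did not pass the filter on low counts.

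These features also differ between the deposited count table and the deposited TPM table, whose values are scaled for transcript length. In TPM, Lars2 stood at 605 ± 59.5 (SD, n = 3) with 5000 cells and at 1880 ± 151 (n = 3) with 20000 cells. Gm15564, Mir6236 and Gm23935 are listed at 0 TPM in all 6 libraries, although Mir6236, the least counted of them, had at least 2138 counts in every one. Of the list of features that carry or resemble ribosomal or other abundant non-coding RNA, 4 of 11 members were tested. Lars2 and Mir6236 were the 2 that passed, against 0.0879% of all genes. Both were known from earlier results on other inputs when the list was chosen, so this count is not an independent result. The long non-coding models Gm42418 and Gm26917 had log2 differences of -0.46 (SE 0.20) and -0.14 (SE 0.25), and neither passed. The list took 0.458 to 0.581% of counts with 5000 cells and 0.853 to 0.931% with 20000 cells, and most of that difference was Lars2 itself.

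**Figure D2:**
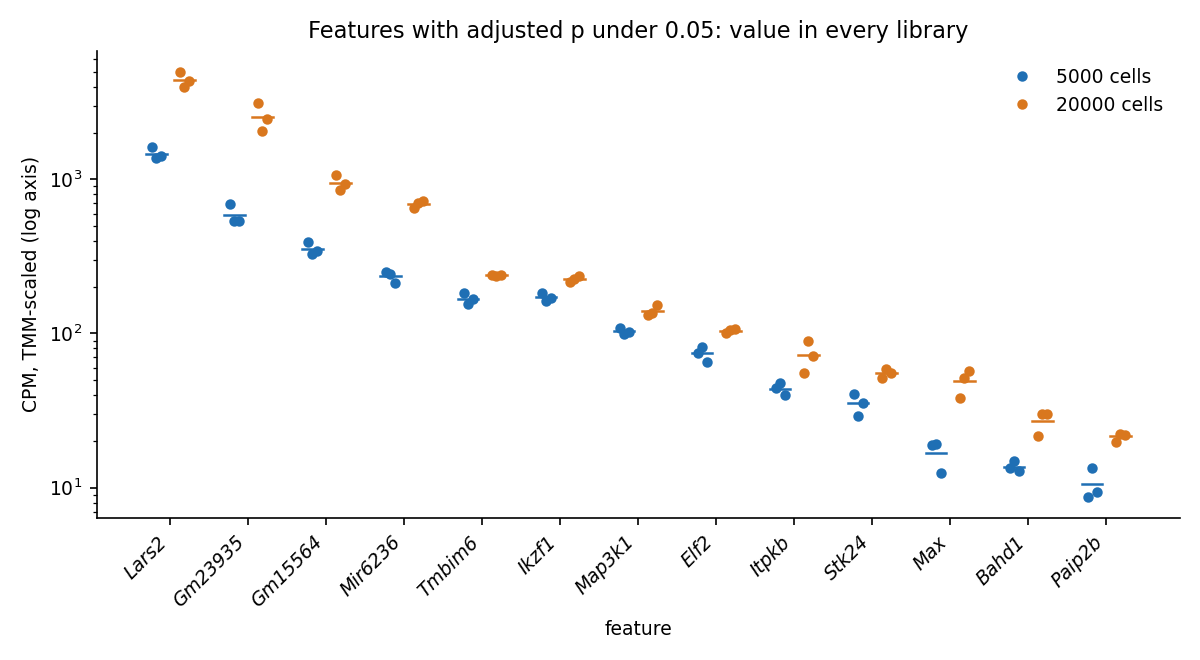
CPM (y axis, log scale) of the 13 features that passed, in each 5000-cell library (blue) and each 20000-cell library (orange), with bars at the group means. In all 13 every 5000-cell library lies below every 20000-cell library, and Lars2, Gm15564, Mir6236 and Gm23935 lie highest at 20000 cells. Such separation, found in 7.69% of all tested genes, is favoured by the call on these same libraries and is not an independent result.

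The other 9 were protein-coding genes at 21.5 to 238 CPM with 20000 cells, and among them are regulators of transcription and kinases of signal transduction. Max, the partner that MYC needs to bind DNA (ENSMUSG00000059436, chr12:76937269-76962201), had the largest difference. It stood at 18.9, 19.3 and 12.5 CPM with 5000 cells and at 38.3, 51.7 and 56.7 CPM with 20000 cells. The lowest 20000-cell library thus lay well above the highest 5000-cell library, and the log2 difference was -1.53 (SE 0.21; adjusted p = 0.0037, edgeR). In deposited TPM, Max stood at 10.8 ± 2.75 (SD, n = 3) against 30.2 ± 6.51 (n = 3), where the call was lost (adjusted p = 0.25, limma on log2(TPM + 1)).

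The other transcription and chromatin factors had smaller differences. Bahd1, which takes part in building heterochromatin (chr2:118900377-118924528), was at 13.3, 14.8 and 12.8 CPM with 5000 cells and at 21.5, 30.0 and 30.2 CPM with 20000 cells (log2 difference -1.0, SE 0.15; adjusted p = 0.0079, edgeR), and its difference was -0.61 in limma on log2(TPM + 1), where it did not pass (adjusted p = 0.545). Ikzf1, which encodes the lymphoid transcription factor Ikaros (chr11:11685003-11772926), was at 184, 162 and 170 against 216, 225 and 237 CPM. It had the smallest difference of the 13, -0.39 (SE 0.07; adjusted p = 0.041, edgeR). Elf2, an ETS family transcription factor (chr3:51252720-51340663), was at 75.2, 81.8 and 65.8 against 101, 105 and 107 CPM (-0.49, SE 0.09; adjusted p = 0.040, edgeR).

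The signalling genes that passed were Stk24, Itpkb and Map3k1. Stk24, a kinase of the STE20 family (chr14:121286343-121380011), stood at 40.7, 29.4 and 35.5 CPM with 5000 cells and at 51.3, 59.0 and 55.8 CPM with 20000 cells (log2 difference -0.66, SE 0.12; adjusted p = 0.031, edgeR). Itpkb, a kinase of inositol trisphosphate needed for lymphocyte development (chr1:180330485-180424802), stood at 44.3, 47.5 and 39.9 against 55.2, 89.2 and 71.8 CPM, and its 20000-cell libraries were the more spread (-0.72, SE 0.13; adjusted p = 0.041). Map3k1, which acts at the head of a MAP kinase cascade (chr13:111746428-111808993), stood at 109, 99.6 and 103 against 132.5, 136 and 153 CPM (-0.44, SE 0.08; adjusted p = 0.041). On log2(TPM + 1) the difference of Map3k1 was -0.12 and did not pass (adjusted p = 0.88, limma).

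The last of the 13 were Tmbim6 and Paip2b. Tmbim6, a membrane protein of the endoplasmic reticulum known as Bax inhibitor 1 (chr15:99392882-99410049), was at 183, 155 and 167 CPM with 5000 cells and at 239, 235 and 240 CPM with 20000 cells. The 20000-cell libraries lay close together, and the log2 difference was -0.50 (SE 0.07; adjusted p = 0.0040, edgeR). Paip2b, which encodes an inhibitor of poly(A)-binding protein (chr6:83805401-83831741), was at 8.72, 13.5 and 9.31 against 19.9, 22.5 and 22.1 CPM (-1.02, SE 0.18; adjusted p = 0.037, edgeR). Kctd12 (-0.67), Bag6 (-0.59), Actn1 (-0.68) and Copg2 (-0.44) came next in order of p and did not pass, at adjusted p of 0.062 to 0.069.

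No gene passed in the other direction, and those given here came nearest with groups that did not overlap and did not pass. The smallest p belonged to Ndrg2, of the NDRG family, at 8.61, 9.63 and 9.02 CPM with 5000 cells and 4.79, 4.88 and 5.46 CPM with 20000 cells (log2 difference 0.85, SE 0.19; adjusted p = 0.123, edgeR). Fga, the alpha chain of fibrinogen made by hepatocytes, followed at 24.8, 25.3 and 24.6 against 15.6, 12.8 and 13.4 CPM (0.84, SE 0.19; adjusted p = 0.129). Vtn, which encodes vitronectin and is also made by hepatocytes, was at 11.4, 13.5 and 16.9 against 7.48, 6.40 and 8.19 CPM (0.93, SE 0.24; adjusted p = 0.201). Mpnd, Taz, Tmem185b, Smpd2, Uba7 and the autophagy receptor gene Sqstm1 had differences between 0.22 and 0.40.

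The 2500-cell and 10000-cell libraries make the same 4-fold step in cell number and share no library with the comparison above. In that step 29 genes passed (0.196%), 25 lower with fewer cells (0.169%) and 4 higher (0.027%). Of the 13 genes, 8 had estimates below 0 there, against 48.1% of all tested genes, 4 of these had an unadjusted p under 0.05 (3.67% of all genes were lower at that level), and 1 passed. The gene that passed was Lars2, at 1505, 1420 and 1534 CPM with 2500 cells and 2142, 2021 and 1932 CPM with 10000 cells (log2 difference -0.45, SE 0.08; adjusted p = 0.018, edgeR). Gm23935 (-0.80, SE 0.15), Gm15564 (-0.42, SE 0.08) and Tmbim6 (-0.19, SE 0.07) were the others below 0 with an unadjusted p under 0.05, and their adjusted p were 0.087, 0.052 and 0.53.

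**Figure D3:**
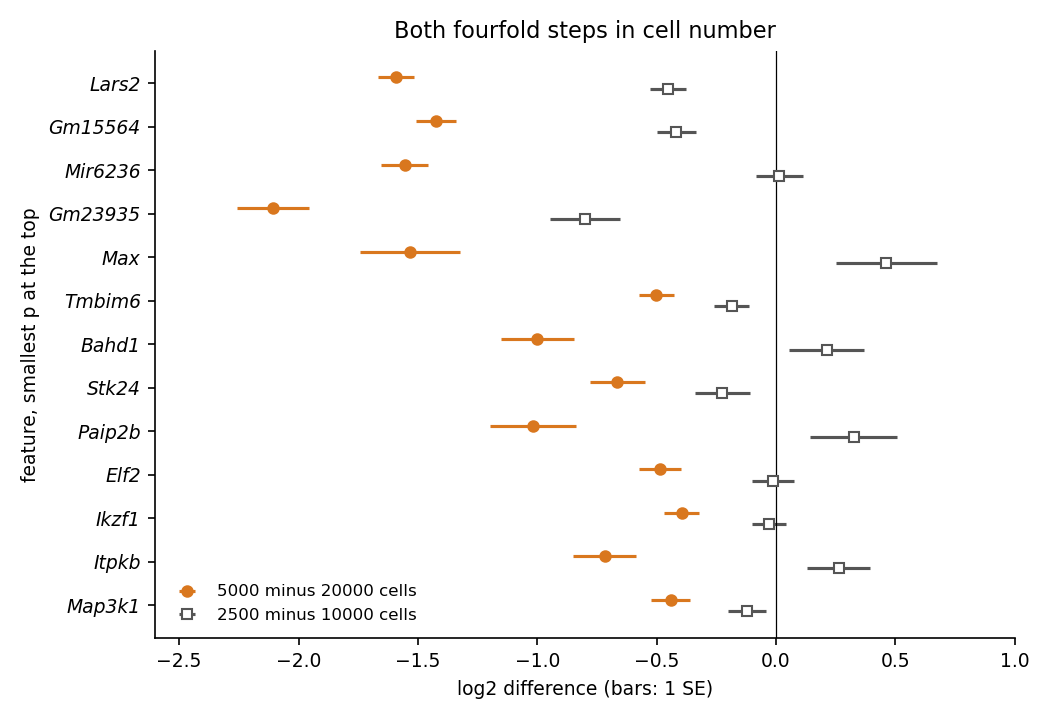
Log2 difference (x axis, bars 1 SE) of the 13 features that passed, for 5000 minus 20000 cells (filled circles) and for 2500 minus 10000 cells (open squares). Lars2 and Gm23935 lie below 0 in both steps, and Max lies at -1.53 and 0.46.

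Mir6236 had no such difference in the second step. It was at 265, 276 and 248 CPM with 2500 cells and at 279, 292 and 210 CPM with 10000 cells, with overlapping groups and a log2 difference of 0.01 (SE 0.10). Max was higher with fewer cells there, at 21.6, 18.5 and 32.4 against 20, 16.8 and 15.7 CPM (0.46, SE 0.21; adjusted p = 0.66, edgeR), and did not pass. Its unadjusted p was 0.0445. Bahd1, Paip2b and Itpkb also had estimates above 0 in the second step (0.21, 0.33 and 0.26), while Elf2, Ikzf1, Map3k1 and Stk24 lay between -0.22 and -0.01. A test of the difference between the steps passed for 6 genes of all tested (0.0406%), 4 of them among the 13. That test includes the estimates by which the 13 were chosen. Their number among the 6 is therefore favoured by that choice and is not an independent result.

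Read the other way, 21 of the 25 genes that were lower with 2500 than with 10000 cells had estimates below 0 between 5000 and 20000 cells, against 48.2% of all genes. Qk, which encodes the RNA-binding protein Quaking, had the smallest p among them. It stood at 81.2, 69.9 and 67.4 CPM with 2500 cells and 174, 155 and 189 CPM with 10000 cells (log2 difference -1.24, SE 0.12; adjusted p = 1.9e-04, edgeR). Between 5000 and 20000 cells it stood at 94.8, 132 and 120 against 178, 159 and 134 CPM (-0.44, SE 0.12; adjusted p = 0.30), without overlap and without passing. Tada2b, of histone acetyltransferase complexes, had -1.48 in the 2500-cell step and -0.74 between 5000 and 20000 cells. Over all genes, the sign of the estimate was the same in both steps for 7390 of 14795.

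Each other input can also be set against the same 20000-cell libraries, so these comparisons share them with the one above and are given side by side only. Of the 13 genes, 9 were lower and passed with 2500 cells against 20000 (0.338% of all genes) and 8 with 10000 cells against 20000 (0.291%). Lars2 stood at 1486 ± 59.3 CPM (SD, n = 3) with 2500 cells, 1468 ± 135 with 5000, 2032 ± 106 with 10000 and 4425 ± 510 with 20000. The 20000-cell libraries lay above all libraries of the 3 lower inputs. Max stood at 24.2 ± 7.32, 16.9 ± 3.83, 17.5 ± 2.22 and 48.9 ± 9.52 CPM in that order, and Bahd1 at 16.5 ± 1.52, 13.6 ± 1.05, 14.2 ± 0.899 and 27.3 ± 4.95 CPM. Gm23935 was at 608 ± 16.5, 588 ± 88.6, 1059 ± 91.3 and 2535 ± 538 CPM.

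Genes of leukocyte types were compared as lists chosen with earlier results of these data known. Of 15 shared leukocyte genes 10 estimates were above 0 and 0 passed, with a median log2 difference of 0.03. Coro1a, an actin regulator, was at 2750, 2617 and 2685 CPM with 5000 cells and 2643, 2372 and 2421 CPM with 20000 cells (log2 difference 0.11, SE 0.05). Was, the actin regulator lost in Wiskott-Aldrich syndrome, was the member farthest from 0, at 23.7, 20.9 and 22.6 against 27.2, 41.5 and 41.4 CPM (-0.72, SE 0.16; adjusted p = 0.130, edgeR). In bulk RNA, fewer cells of a type and less RNA per cell cannot be told apart.

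Among myeloid cells, 12 of 15 Kupffer cell genes had estimates above 0 (median 0.06). For 15 of 15 the 95% confidence interval lay within 2-fold, against 96.7% of all tested genes of at least 5 CPM. For 12 of 15 it lay within 1.5-fold, against 79.8% of those genes. Clec4f, a lectin of Kupffer cells, was at 152, 142 and 176 CPM with 5000 cells and 134, 141 and 131 CPM with 20000 cells, without overlap (log2 difference 0.21, SE 0.15; adjusted p = 0.786, edgeR). Cd5l, a secreted macrophage protein, was at 77.3, 102 and 91.4 against 76.1, 79.2 and 64.6 CPM (0.30, SE 0.14; adjusted p = 0.594, edgeR), with overlap. C1qa, which encodes part of complement C1q, had 0.17 (SE 0.12). These examples lie above the list median, and Cd5l is the highest of the list. The 2 most abundant members, Csf1r at 0.06 (SE 0.07) and Slc40a1 at -0.07 (SE 0.11), overlapped between groups, and 3 of 15 estimates were below 0. The 14 monocyte genes had a median of -0.02, with Lyz2, which encodes lysozyme, at -0.03 (SE 0.05) and Ly6c2 at -0.20 (SE 0.06). Of 14 neutrophil genes 7 estimates were above 0 and 7 below, with a median of 0.00. The alarmin genes S100a9 (-0.43, SE 0.18) and S100a8 (-0.39, SE 0.18) overlapped between groups, while Cebpe, a transcription factor of maturing granulocytes, had 1.25 (SE 0.59; adjusted p = 0.612, edgeR) and Camp 2.59 (SE 2.51), and the 14 dendritic cell genes had a median of -0.03.

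Lymphocyte lists lay close to 0 as well. The 18 T cell genes had a median log2 difference of -0.03, with the kinase gene Lck at 425, 441 and 437 CPM with 5000 cells and 411, 396 and 416 CPM with 20000 cells (0.09, SE 0.06). The 17 genes that mark natural killer and innate lymphoid cells had a median of -0.00, with Gzma, a granule protease, at -0.03 (SE 0.08). Of 15 B cell genes 13 estimates were above 0 (median 0.06), and none passed. Ighm, the heavy chain of immunoglobulin M, was at 4203, 4478 and 3571 against 3523, 3361 and 3442 CPM (0.25, SE 0.07; adjusted p = 0.353, edgeR), without overlap, while Pax5, the B cell transcription factor, had -0.23 (SE 0.09). The B cell list took 1.29 ± 0.0254% (SD, n = 3) of counts with 5000 cells and 1.19 ± 0.0231% (n = 3) with 20000 cells, without overlap (exact two-sided permutation p = 0.1, the smallest that 3 against 3 allows). Monocyte and plasma cell shares did not overlap either, and both were lower with 5000 cells (p = 0.1 each by the same permutation test). For plasma cells the lack of overlap depends on Ighg1 in 1 library (below). The monocyte list took 1.46 to 1.47% with 5000 cells and 1.48 to 1.58% with 20000 cells.

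Genes of plasma cells, the antibody-secreting cells, had 6 of 12 tested estimates above 0 and 6 below (median log2 difference -0.03), and none passed. The list took 0.125 to 0.142% of counts with 5000 cells and 0.144 to 0.146% with 20000 cells, without overlap. That lack of overlap depends on Ighg1 (below), which holds 100.7 CPM of the 20000-cell replicate 2 share of 0.1439%. Without Ighg1 that library would lie below 5000-cell replicate 3, at 0.142%. Xbp1 was steady, at 319 ± 9.78 CPM (SD, n = 3) with 5000 cells and 301 ± 8.97 CPM (n = 3) with 20000 cells. Jchain, Igha and Ighg1 varied more, each within at least 1 input. Jchain, the joining chain of secreted immunoglobulin, was at 114, 77.3 and 54.6 CPM with 5000 cells and 58.6, 56.5 and 58.8 CPM with 20000 cells, and its groups overlapped (log2 difference 0.49, SE 0.26; adjusted p = 0.686, edgeR). With 2500 cells it was at 0.352 ± 0.330 CPM (SD, n = 3). Igha was at 162, 115 and 294 against 209, 211 and 300 CPM (-0.34, SE 0.50). Ighg1 had 0 counts in the 3 libraries of 5000 cells and 0, 934 and 21 counts with 20000 cells, so that 1 library holds nearly all of them.

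Genes far higher in 1 library than in the others were looked for over the whole table, by a rule chosen after values were seen. In 9 of 11672 genes (0.0771%) the highest of the 6 libraries stood at 5 CPM or more, scaled by library totals, and at least 5-fold above the next. Of these, 3 were variable genes of immunoglobulin, 3.03% of the 99 such genes at that level, and 1 was Ighg1. Ighv1-80 reached 91.7 CPM in 5000-cell replicate 1, Ighv4-1 reached 75.1 CPM in 5000-cell replicate 2, and Ighv5-12 reached 23 CPM in 20000-cell replicate 2. Ngp, Ltf and Camp, which encode granule proteins of maturing neutrophils, were at 107.5, 74.2 and 23.1 CPM in 5000-cell replicate 3 and at no more than 12, 12 and 2.0 CPM in the others. Mpo, the myeloperoxidase gene, and Retnla were at 10.2 and 8.67 CPM in 20000-cell replicate 3. Outside these 6 libraries, Ngp had 1250 counts in 2500-cell replicate 2 and 430 in 10000-cell replicate 1. By group, 5 of the 9 were highest in a 5000-cell library and 4 in a 20000-cell library.

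Hepatocyte genes, which mark RNA of cells outside the gate, lay above 0 in all 23 tested of 26 members, and none passed. The median log2 difference was 0.46, against 0.01 over all genes. In 12 of the 23 the groups did not overlap, all with the 5000-cell libraries above, against 8.67% of all genes. Of the 23, 9 had an unadjusted p under 0.05, against 3.37%. The members share their source, so these counts are not independent.

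Alb, which encodes albumin, was at 54.1, 56.5 and 55.8 CPM with 5000 cells and 46.7, 37.2 and 38.5 CPM with 20000 cells (log2 difference 0.45, SE 0.15; adjusted p = 0.430, edgeR). Every 5000-cell library lay above every 20000-cell library. Apoa1, the main protein of high-density lipoprotein, was at 41.7, 42.7 and 47.1 against 38.9, 27.7 and 28.3 CPM, again without overlap (0.48, SE 0.15). Serpina3k, a serine protease inhibitor, was at 75.2, 75.2 and 104 against 69.6, 54.9 and 60.2 CPM (0.47, SE 0.14), and Cyp3a11, a cytochrome P450, was at 16, 17.7 and 14 against 10.8, 8.79 and 10.4 CPM (0.68, SE 0.21). Hp, which encodes haptoglobin and is also made by myeloid cells, had 0.06 (SE 0.08) with overlapping groups.

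The hepatocyte list took 0.0568 to 0.0656% of counts in the 5000-cell libraries and 0.0452 to 0.0531% in the 20000-cell libraries, which did not overlap (exact two-sided permutation p = 0.1). With 2500 cells the share was 0.0491 to 0.0585% and with 10000 cells 0.0459 to 0.0573%. The 3 members under the filter were near 0, with 0 counts over the 5000-cell libraries and 11 over the 20000-cell libraries for Abcb11, 3 and 0 for Cyp7a1, and 3 and 11 for G6pc. The part of this RNA in any other difference was not tested. Sinusoidal endothelial genes had a median of 0.10, and 5 of 14 estimates were below 0.

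**Figure D4:**
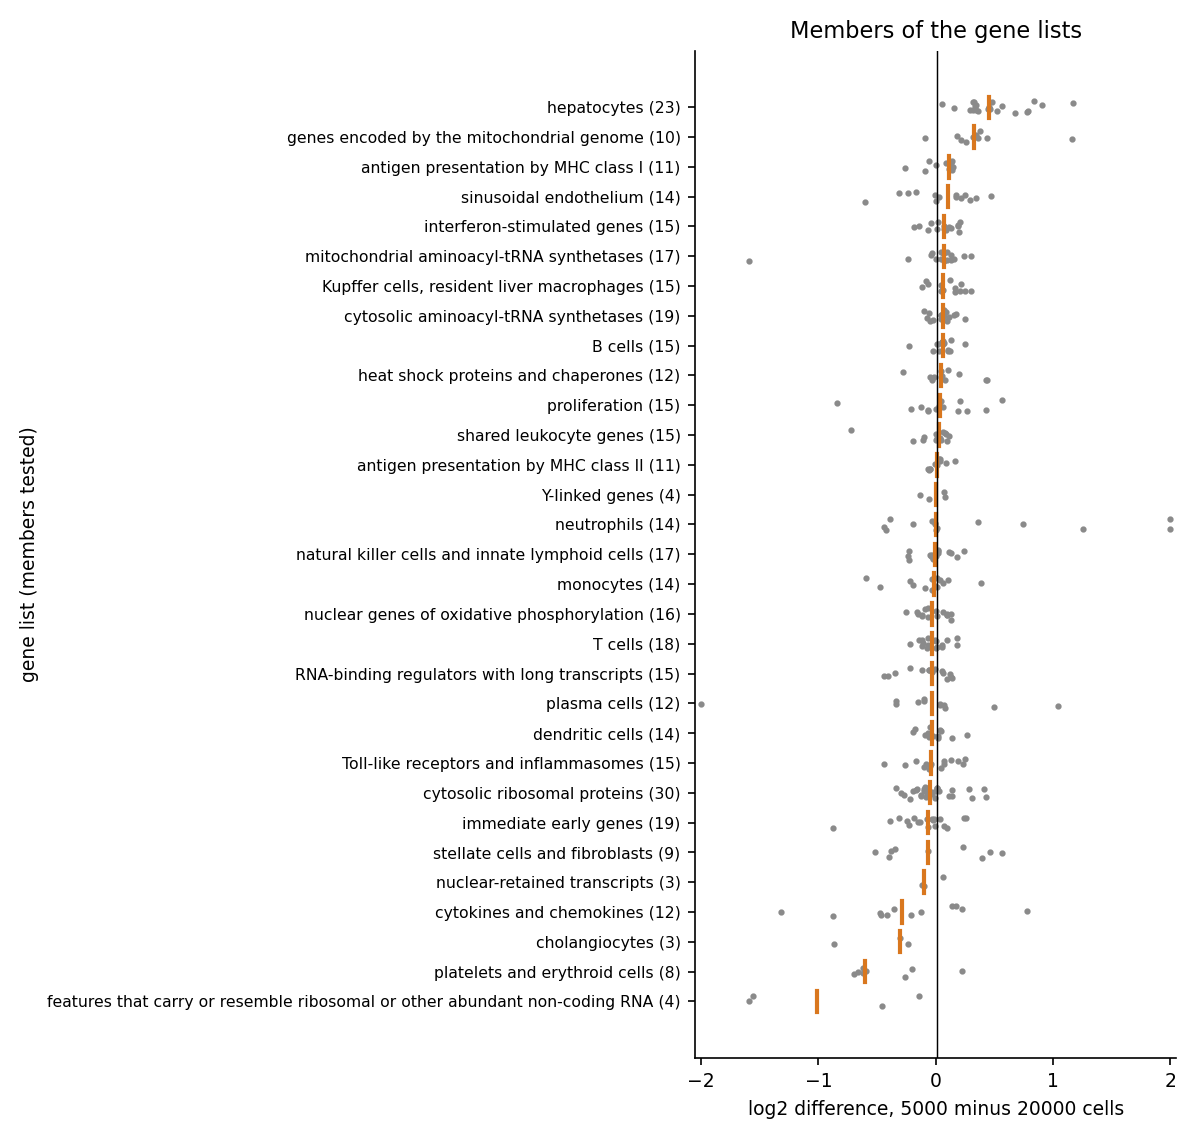
Log2 difference between 5000 and 20000 cells (x axis) of each tested member (grey points) of 31 gene lists (y axis), with the list median in orange and the median of all tested genes as a black line. Hepatocyte genes, with a median of 0.46, and mitochondrially encoded genes, with 0.33, are at the top, and 3 members beyond a size of 2 are drawn at the edge.

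Genes encoded by the mitochondrial genome followed, with 9 of 10 estimates above 0, a median of 0.33 and 0 that passed. mt-Nd1, a subunit of respiratory complex I, was at 4576, 4754 and 4290 CPM with 5000 cells and 3508, 3507 and 3726 CPM with 20000 cells (log2 difference 0.34, SE 0.18; adjusted p = 0.682, edgeR). mt-Cytb, of complex III, was at 5588, 6439 and 5290 against 4308, 4400 and 4650 CPM (0.37, SE 0.20). In 7 of the 10 all 5000-cell libraries lay above all 20000-cell libraries, against 8.67% of all genes, while mt-Rnr2, the large ribosomal RNA, overlapped at -0.09 (SE 0.18). The members share a genome, so these counts are not independent. The share of counts was 3.10 to 3.39% with 5000 cells and 2.65 to 2.92% with 20000 cells, without overlap, but it was 2.02 to 3.90% with 2500 cells and 1.93 to 1.94% with 10000 cells. The other 5 listed members, mt-Nd4l, mt-Co2, mt-Co3, mt-Atp6 and mt-Atp8, had 0 counts in all 6 libraries. Nuclear genes of oxidative phosphorylation had 8 estimates above 0 and 8 below.

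Genes of antigen presentation by MHC class I split by member. The heavy chain genes H2-K1 (log2 difference 0.12, SE 0.04), H2-D1 (0.13, SE 0.04), H2-T23 (0.15, SE 0.05) and H2-Q7 (0.14, SE 0.06) and the peptide loading genes Tapbp (0.14, SE 0.05) and Tap1 (0.11, SE 0.05) had an unadjusted p under 0.05 and were above 0, and none passed. B2m, the light chain that these heavy chains pair with, was at 3264, 3050 and 3260 CPM with 5000 cells and 4245, 3465 and 3799 CPM with 20000 cells. Its groups did not overlap, in the direction opposite to the heavy chains (-0.27, SE 0.06; adjusted p = 0.133, edgeR). The heavy chain genes resemble each other closely, so reads may be split among them. MHC class II genes had a median of 0.01, with the invariant chain gene Cd74 at 0.08 (SE 0.06).

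Cytokine and chemokine genes had 8 of 12 tested estimates below 0, a median of -0.28 and 0 that passed. Tgfb1, which encodes a cytokine that restrains immune cells, was at 164, 158 and 168 CPM with 5000 cells and 196, 235 and 245 CPM with 20000 cells (log2 difference -0.46, SE 0.10; adjusted p = 0.136, edgeR). Ccl6, a chemokine of myeloid cells, was at 436, 436 and 436 against 544, 494 and 475 CPM (-0.21, SE 0.06; adjusted p = 0.307), and neither overlapped. Of 15 RNA-binding regulators with long transcripts, 4 had an unadjusted p under 0.05 and a lower value, against 4.76% of all genes: Qk, Pum2 (-0.40), Zfp36l2 (-0.35) and Zfp36l1 (-0.22). The list was chosen with earlier results known, that of Qk among them, so this count is not an independent result. All genes are also an unlike background, since 9.95% of genes in the longest part by transcript length (below) were lower at that level. In 3 others of that list, Ago2 (0.12), Mbnl2 (0.13) and Celf1 (0.14), all 5000-cell libraries lay above all 20000-cell libraries, against 8.67% of all genes. In 3 of the 15 all 5000-cell libraries lay below, against 7.69% of all genes, and no member of the list passed. Immediate early genes, which handling of cells is known to induce, had 14 of 19 estimates below 0 with a median of -0.06, and Jund had -0.18 (SE 0.08). Cytosolic ribosomal protein genes had 18 of 30 below 0 (median -0.05), 8 platelet and erythroid genes had a median of -0.61 with 0 at an unadjusted p under 0.05, and 4 Y-linked genes had a median of 0.00.

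Genes of at least 5 CPM were split into 5 parts by the length of their longest transcript. In the part from 5081 bases upward, which holds Elf2, Ikzf1, Itpkb and Map3k1, 9.95% had an unadjusted p under 0.05 and a lower value and 1.38% a higher one, with a median log2 difference of -0.06. In the part from 1827 to 2799 bases, 3.42% were lower and 6.57% higher, with a median of 0.05. In the shortest part, up to 1826 bases, 6.13% were lower and 3.15% higher, with a median of -0.01. In the second step, 2500 against 10000 cells, the median of the longest part was 0.03. By GC content, the lowest part (27.5 to 43.6%) had 7.08% lower and 1.50% higher, and the highest part (55.1 to 82.9%) had 6.54% lower and 5.34% higher. Genes are not independent, and no test was made of these shares.

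The median spread between replicates was larger with 5000 than with 20000 cells, except in genes over 100 CPM. The median SD of log2 CPM over 3 libraries was 0.153 with 5000 cells and 0.139 with 20000 cells over all tested genes. Under 5 CPM it was 0.411 against 0.363, from 5 to 20 CPM 0.205 against 0.179, and from 20 to 100 CPM 0.115 against 0.105. Over 100 CPM it was 0.0713 in both groups and 0.0948 with 2500 cells. These values are at full depth, with more counts on average in the 5000-cell libraries. The common dispersion, as a coefficient of variation, was 17.8%, 11.4%, 8.91% and 7.68% with 2500, 5000, 10000 and 20000 cells.

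**Figure D5:**
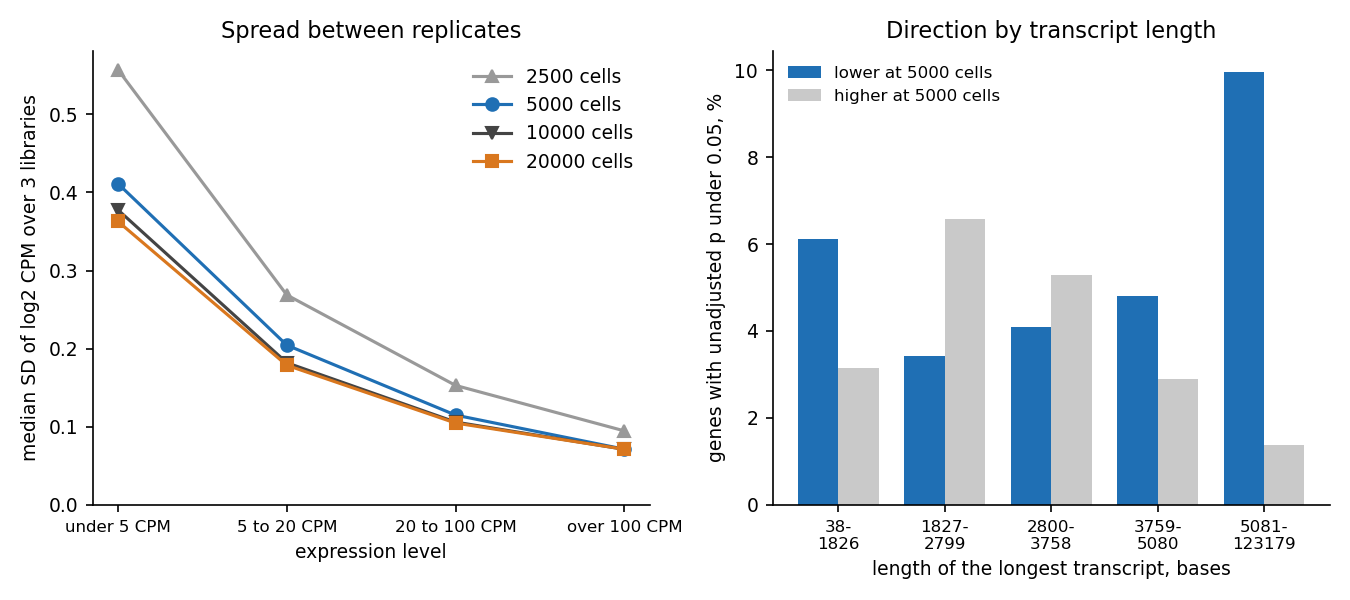
Left, median SD of log2 CPM over the 3 libraries of each input (y axis) by expression level (x axis), where the 5000-cell line lies above the 20000-cell line except over 100 CPM. Right, percent of genes with an unadjusted p under 0.05 (y axis) that were lower (blue) or higher (grey) with 5000 cells, by length of the longest transcript (x axis), with 9.95% lower in the longest part.

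Slightly fewer genes were detected with 5000 cells at equal depth. With each library thinned to 6723357 counts, 19541, 19627 and 19560 genes had at least 1 count with 5000 cells and 19976, 19909 and 20110 with 20000 cells. The groups did not overlap, at 19576 ± 45.2 (SD, n = 3) against 19998 ± 102 (n = 3; exact two-sided permutation p = 0.1). Genes with at least 5 counts numbered 15102 ± 74.2 against 15088 ± 38.7, with overlap. At equal depth 16153 genes had a count in all 6 libraries, 93 in every 20000-cell and no 5000-cell library, and 38 the reverse, and the highest mean count among these was 3.67. In all, 42 values per library were compared in this way, 11 of them without overlap, and their smallest adjusted p was 0.382 by the Benjamini-Hochberg method.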

How the data were processed

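The authors deposited raw counts per gene and TPM values per gene for 14 libraries over 48794 genes, and a table of variance-stabilised values was not used. Library preparation used SMART-seq v4 and tagmentation, per the labels' protocols. The submitters' processing notes name GRCm38, DESeq2 1.34.0, FastQC 0.11.5, featureCounts 1.5.1, RSEM 1.3.0 and STAR 2.5.2b without their roles, and no source used here states the strand setting. Every column was mapped to a sample by its label, and 0 were left over. Total counts of the sorted libraries ranged from 6723357 to 14496314, and intervals cover the spread between libraries.

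The 12 sorted libraries were fitted with edgeR 4.0.16 in R 4.3.3 (quasi-likelihood F test, robust, TMM, filterByExpr by group), with a mean per group and 8 residual degrees of freedom. The contrast was 5000 minus 20000 cells, adjusted by Benjamini-Hochberg over 14795 genes at 0.05. The fit was tested on simulated data. Alternatives were DESeq2 1.42.0, limma 3.58.1 (voom, and log2(TPM + 1) for genes of at least 1 TPM in 3 libraries), library totals, no filter, the 6 libraries alone, a replicate block, thinning, and leaving out each library. Values per library were compared by exact permutation.

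Symbols and positions came from GENCODE M21 (48434 genes placed, 446 IDs without a symbol). The comparison, 32 lists with 464 members (460 matched, 419 distinct genes tested) and all rules were chosen with earlier results of these data known. By the naming rule, each direction gave at most 15 genes of at least 5 CPM that passed, by smallest p, and where under 10 passed, the next by p without overlap, up to 10. It added Ptprc, the 2 most abundant members of each list, and 7 genes known from other inputs; further list members were named after their values were seen. Some items that the rule gives are not reported here.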

Additional observations from a re-analysis of the deposited data

Results flagged for a closer look

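The log2 difference between 5000 and 20000 cells was compared with that between 2500 and 10000 cells, the same 4-fold step in libraries that share none with it. An interaction contrast in edgeR passed for 6 genes of 14795 tested. The difference between the steps was -1.57 (SE 0.14; adjusted p = 5.8e-05) for Mir6236, at -1.56 in the upper step against 0.01 in the lower one. It was -1.14 (SE 0.11; adjusted p = 5.8e-05) for Lars2 and -1.01 (SE 0.12; adjusted p = 5.0e-04) for Gm15564, both of which had estimates below 0 in both steps. It was -2.0 (SE 0.30; adjusted p = 0.012) for Max, at -1.53 against 0.46, and -0.74 (SE 0.12; adjusted p = 0.024) for Copg2, a coatomer subunit gene, at -0.44 against 0.30. For Jchain it was 7.95 (SE 0.62; adjusted p = 3.7e-04), where the 2500-cell step had -7.46 and the 5000-cell step 0.49, and 3 libraries of 2500 cells stood at 0.655, 0.402 and 0 CPM. All 3 libraries of 20000 cells were above all 9 other sorted libraries for Mir6236, Lars2, Gm15564, Max and Copg2. The contrast that picked these genes includes the 20000-cell values, so this is not an independent result. The share of all tested genes with this order was not computed.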

How the results depend on the processing

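The count of genes lower with 5000 cells, 13, was 167 with no filter on low counts, 63 with only the 6 libraries of both groups, 79 with DESeq2 and 2 with limma on log2(TPM + 1), and 6 to 29 when 1 library was left out. The count of higher genes, 0, was 36, 6, 8 and 0 in that order, and 0 to 1 with a library left out. With library totals, thinning and limma-voom it was 13, 13 and 15 lower, with 0 higher. The replicate block gave 11 lower, 10 of them among the 13, with 0 higher, and 9 genes that differed between the steps. Same-numbered libraries of both groups did not deviate together (correlations -0.02, 0.07 and -0.27), and not every library correlated best with its own number, so the numbers were not used as pairs. The 6 genes that differed between the steps were 6 with library totals and 41 with DESeq2. None of the 13 changed sign in 20 alternatives, but with TPM Map3k1 moved from -0.44 to -0.12 and Bahd1 from -1.0 to -0.61, the moves of over 1.5 times. Lars2 kept its call in all 20, and Mir6236 and Gm15564 in the 19 that give a value, since their TPM are 0. Another 10 lost it at least once: Gm23935, Max and Tmbim6 in 1 each (Max and Tmbim6 with TPM, at adjusted p of 0.25 and 0.0545), Bahd1 in 5, Stk24 and Paip2b in 6, Elf2 in 8, Ikzf1 in 9, Itpkb in 10 and Map3k1 in 11. Detected genes, 422 fewer with 5000 cells, were 13.7 more at 5 counts or above and 156 more at full depth. Near 0, Ptprc was 0.0547 and Ddx3y -0.00857 with TPM, and leaving out a library gave -0.0322 to 0.0434 for Ptprc, -0.0756 to 0.0579 for Gzma, -0.0323 to 0.121 for Iars2, -0.0618 to 0.0213 for Rpl4 and -0.211 to 0.00907 for Neat1, none passing. The causes of these changes were not tested. With 3 libraries a group, genes under 5 CPM are the least precise.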
